A study of Mus musculus with 9 samples.

Results

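The 9 genes described here make up a cytokine signalling route of the embryonic mouse cortex, from ligand to feedback inhibitor. They are the ligand genes Ctf1 and Clcf1, the receptor genes Lifr, Il6st, Cntfr and Osmr, the kinase gene Jak1, the transcription factor gene Stat3 and the inhibitor gene Socs3. A gene was represented by the probe set (the group of array probes read as 1 measurement) that had the listed symbol alone in the platform annotation, and by the one with the highest mean where there were several. All 9 genes had such a probe set, out of 22180 genes with one on these arrays. Expression was measured on 9 arrays, 3 from each culture, and all cultures came from wild-type CD1 mice. The co-culture held neurons from embryonic day 16, kept for 5 days in all, to which precursors from embryonic day 13 were added for the last 1 day. The neuron culture held cortical cells of embryonic day 16 kept for 5 days in all, although another label field gives 4 days. The precursor culture held cortical cells of embryonic day 13 kept for 1 day. Age of the embryos and time in culture therefore differ between neurons and precursors and cannot be told apart from cell type. The labels call the 3 arrays of a group biological replicates and do not say whether embryos were pooled.

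LIF-type cytokines are secreted proteins that share the signalling receptor gp130, encoded by Il6st. Cardiotrophin-1 (Ctf1) and cardiotrophin-like cytokine factor 1 (Clcf1) act through gp130 paired with the LIF receptor (Lifr), and Clcf1 also needs the CNTF receptor alpha chain (Cntfr) to bind. In mouse, oncostatin M uses the receptor encoded by Osmr together with gp130. Bound receptors activate JAK kinases, which phosphorylate STAT3. STAT3 then enters the nucleus and switches on targets such as the astrocyte gene Gfap and Socs3, whose protein blocks the receptor. In the developing cortex, cardiotrophin-1 released by neurons is known to help turn precursors from making neurons to making astrocytes.

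Levels are log2 values of the robust multi-array average (RMA), so a difference of 1 is a 2-fold change. Levels of different genes rest on different probes and were not set against each other. Of the 9 genes, 8 lay above the median of all probe sets on each of the 9 arrays and were tested among 13012 genes. Osmr lay below that median on all 9 arrays and was not tested. Differences were tested in 1 limma model of the 3 groups, with p-values adjusted by the Benjamini-Hochberg method over the 13012 genes and called at an adjusted p below 0.05. The 3 differences between cultures share arrays and are not independent of each other. Because each array holds the RNA of a whole culture, fewer cells of a type and less RNA per cell cannot be told apart.

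Marker genes checked the cultures against their labels. In neurons, 5 of 6 neuron markers were higher than in precursors, and all 6 radial precursor markers and the 3 tested cycling cell markers were lower. Among all tested genes 28% were higher and 35.2% lower. The precursor culture still had all 6 neuron markers above the array median on its 3 arrays. The log2 of their summed linear level was 13.95 to 13.98 there and 14.66 to 14.70 in neurons. Likewise 5 of 6 radial precursor markers were above that median on all 3 neuron arrays. Their sums were 13.15 to 13.36 in neurons and 14.08 to 14.16 in precursors. In the co-culture, 3 of 6 neuron markers were higher than in precursors and no radial precursor or cycling cell marker passed the test. Of all tested genes 8.22% were higher and 0.2% lower there. The astrocyte-defining genes Gfap, Aqp4 and S100b were below the filter. Arrays of 1 group correlated at 0.988 or above over all probe sets, and no array stood apart.

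The ligands differed between the cultures in 1 of 2 cases. Clcf1 was at 7.57, 7.55 and 7.52 in the co-culture, at 6.81, 7.05 and 6.90 in neurons and at 7.77, 7.67 and 7.50 in precursors. Neurons were thus lowest on all 3 arrays, with no overlap with either other group, while the co-culture lay within the range of the precursors. Clcf1 was 1.66-fold lower in neurons than in precursors (log2 difference -0.73, SE 0.078, adjusted p = 2.08e-05) and 1.55-fold higher in the co-culture than in neurons (0.63, SE 0.078, adjusted p = 7.68e-05). The difference between co-culture and precursors was -0.10 (95% interval -0.28 to 0.072, adjusted p = 0.606) and did not pass.

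Ctf1 was at 8.38, 8.16 and 8.53 in the co-culture, at 8.55, 8.39 and 8.55 in neurons and at 8.61, 8.20 and 8.29 in precursors. All 3 groups overlapped, and precursors had both the highest value, on replicate 1, and one of the lowest. Neurons differed from precursors by 0.13 (95% interval -0.14 to 0.40, adjusted p = 0.377). The co-culture differed from precursors by -0.0073 (95% interval -0.28 to 0.26, adjusted p = 0.988) and from neurons by -0.14 (95% interval -0.40 to 0.13, adjusted p = 0.348).

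**Figure D1:**
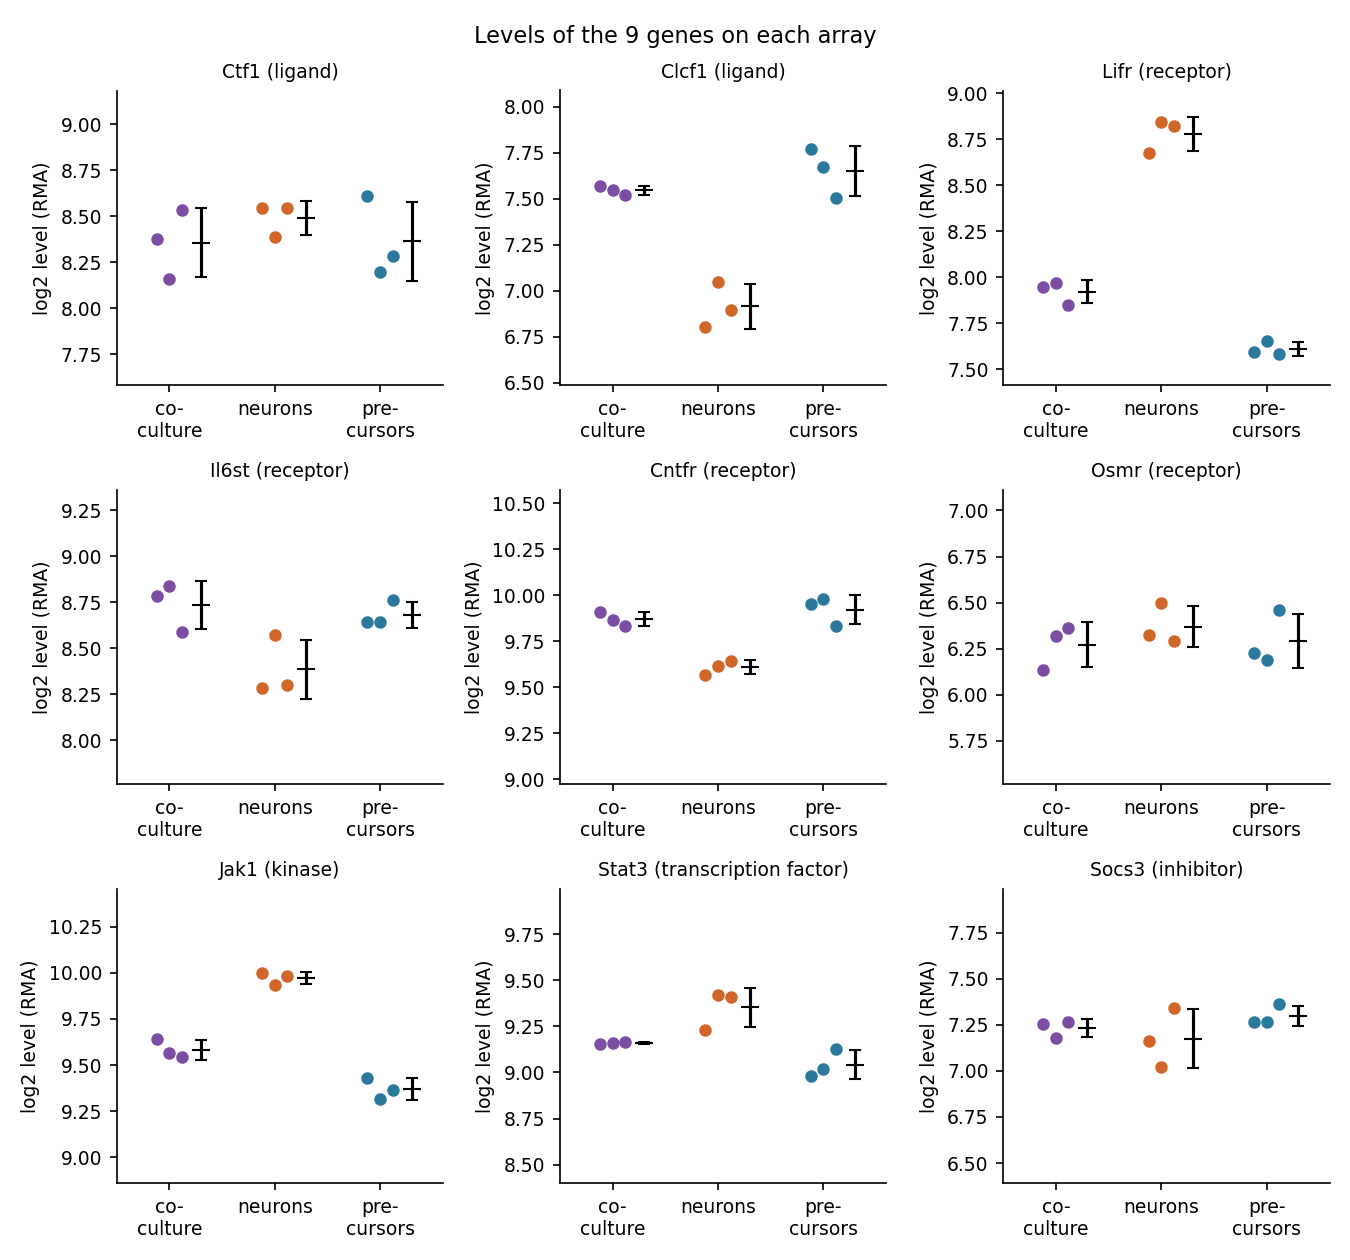
Each panel plots the log2 RMA level of 1 gene on each array (points) for the co-culture, neurons and precursors, with the group mean and SD (n = 3) in black. All panels span the same number of log2 units. Lifr, Jak1 and Clcf1 separate neurons from both other cultures most widely, while Ctf1, Osmr and Socs3 overlap in all 3.

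Lifr, which encodes the receptor chain that binds LIF-type ligands, differed most among the 9 genes. It was at 7.95, 7.97 and 7.85 in the co-culture, at 8.67, 8.84 and 8.82 in neurons and at 7.59, 7.65 and 7.59 in precursors. None of the 3 groups overlapped, and the co-culture lay between the separate cultures on each array. Lifr averaged 8.78 ± 0.091 in neurons and 7.61 ± 0.036 in precursors (SD, n = 3 each), which is 2.25-fold higher in neurons (1.17, SE 0.057, adjusted p = 8.58e-08). It was 1.24-fold higher in the co-culture than in precursors (0.31, SE 0.057, adjusted p = 0.00745) and 1.81-fold lower in the co-culture than in neurons (-0.86, adjusted p = 1.17e-06).

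Il6st, the gene of the shared signalling chain gp130, ran the other way between the separate cultures. It was at 8.78, 8.84 and 8.59 in the co-culture, at 8.29, 8.57 and 8.30 in neurons and at 8.64, 8.64 and 8.76 in precursors. The highest neuron value, of replicate 2, lay just under the lowest values of the other cultures. Il6st was 1.23-fold lower in neurons than in precursors (-0.29, SE 0.090, adjusted p = 0.0161), a call that was lost without neuron replicate 1 (adjusted p = 0.0611), neuron replicate 3 (0.0576) or precursor replicate 3 (0.0611). Over all alternatives its adjusted p lay between 0.00184 and 0.0611. It was 1.27-fold higher in the co-culture than in neurons (0.35, SE 0.090, adjusted p = 0.00709). Against precursors the co-culture differed by 0.056 (95% interval -0.15 to 0.26, adjusted p = 0.856).

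Cntfr, which encodes the ligand-binding alpha chain anchored to the membrane, was at 9.91, 9.87 and 9.83 in the co-culture, at 9.57, 9.62 and 9.64 in neurons and at 9.95, 9.98 and 9.83 in precursors. As for Il6st, all 3 neuron arrays lay below all arrays of the other cultures. Cntfr was 1.24-fold lower in neurons than in precursors (-0.31, SE 0.051, adjusted p = 3.90e-04) and 1.20-fold higher in the co-culture than in neurons (0.26, adjusted p = 0.00146). The co-culture and precursors overlapped and differed by -0.052 (95% interval -0.17 to 0.062, adjusted p = 0.725). The 3 tested receptor chains thus did not move together between the separate cultures: Lifr was higher in neurons, and Il6st and Cntfr were lower.

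Osmr, the receptor gene for oncostatin M, was dim on every array. It was at 6.13, 6.32 and 6.36 in the co-culture, at 6.33, 6.50 and 6.29 in neurons and at 6.23, 6.19 and 6.46 in precursors. The groups overlapped throughout. In a fit of all 22180 genes without the filter, neurons differed from precursors by 0.078 (95% interval -0.13 to 0.29, adjusted p = 0.586), and the co-culture from precursors by -0.021 (adjusted p = 0.967).

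Jak1, the kinase bound to these receptors, was highest in neurons. It was at 9.64, 9.56 and 9.54 in the co-culture, at 10.00, 9.93 and 9.98 in neurons and at 9.43, 9.31 and 9.37 in precursors. The 3 groups did not overlap. Jak1 was 1.52-fold higher in neurons than in precursors (0.60, SE 0.049, adjusted p = 2.84e-06) and 1.31-fold lower in the co-culture than in neurons (-0.39, adjusted p = 7.86e-05). In the co-culture it was 1.16-fold higher than in precursors (0.21, SE 0.049, adjusted p = 0.0247). That call was lost without the filter (adjusted p = 0.0639), without co-culture replicate 1 (0.115) or 2 (0.0752), without precursor replicate 2 (0.0933) or 3 (0.0727), and with arrays centred on the tested genes (0.142). Over all alternatives its adjusted p lay between 0.00836 and 0.142.

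Stat3, the transcription factor gene of the route, was at 9.15, 9.16 and 9.17 in the co-culture, at 9.23, 9.42 and 9.41 in neurons and at 8.98, 9.02 and 9.13 in precursors. The groups did not overlap, although precursor replicate 3 lay close to the co-culture. Stat3 was 1.24-fold higher in neurons than in precursors (0.31, SE 0.062, adjusted p = 0.00142). The co-culture differed from precursors by 0.12 (95% interval -0.020 to 0.26, adjusted p = 0.379), which did not pass. It was 1.14-fold lower than in neurons (-0.19, SE 0.062, adjusted p = 0.0214). This last call was lost without co-culture replicate 1 (adjusted p = 0.0582) or 2 (0.0532) and without neuron replicate 2 (0.0626) or 3 (0.0702), in a range of 0.00105 to 0.0702 over all alternatives.

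Socs3, a STAT3 target whose protein inhibits gp130 signalling, was at 7.25, 7.18 and 7.27 in the co-culture, at 7.16, 7.02 and 7.34 in neurons and at 7.27, 7.27 and 7.36 in precursors. All groups overlapped, and the neuron arrays spread most. Neurons differed from precursors by -0.12 (95% interval -0.29 to 0.047, adjusted p = 0.185). Without neuron replicate 3, the highest neuron array, the difference was -0.21 and passed (adjusted p = 0.0173; 0.0173 to 0.554 over all alternatives). The co-culture differed from precursors by -0.064 (adjusted p = 0.782) and from neurons by 0.059 (adjusted p = 0.521). A second, dimmer Socs3 probe set averaged 5.51 in the co-culture, 5.48 in neurons and 5.46 in precursors.

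Promoter sequence was searched for the palindrome TTCNNNGAA, which STAT dimers can bind and which reads the same on both strands. The windows were the 250 bases before each RefSeq gene start (build GRCm38.p6). Of the 9 genes, 8 had a window, and only Socs3 held the motif. Over all genes with a window, 8.13% held it in at least 1 window. Of the 16 STAT3-responsive genes listed for comparison, 13 had a window, and 3 of these held it (Bcl6, Icam1 and Irf1). The Socs3 window (chr11:117969367-117969616, minus strand) and the Bcl6 window with 3 copies (chr16:23981284-23981533, minus strand) are shown. They were picked because Socs3 is the feedback target among the 9 genes and Bcl6 was among the responsive genes that differed most. A second Bcl6 window (chr16:23988853-23989102, minus strand) held 1 copy and is not shown. Fos, which differed more than Bcl6 between neurons and precursors, held no copy. Whether the motif goes with a difference was not tested. Capitals mark the motif.
Socs3: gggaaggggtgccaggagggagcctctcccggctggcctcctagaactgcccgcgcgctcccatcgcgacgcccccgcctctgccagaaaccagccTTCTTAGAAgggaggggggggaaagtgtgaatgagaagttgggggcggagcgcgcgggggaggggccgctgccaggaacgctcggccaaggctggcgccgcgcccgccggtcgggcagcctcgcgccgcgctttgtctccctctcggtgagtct
Bcl6: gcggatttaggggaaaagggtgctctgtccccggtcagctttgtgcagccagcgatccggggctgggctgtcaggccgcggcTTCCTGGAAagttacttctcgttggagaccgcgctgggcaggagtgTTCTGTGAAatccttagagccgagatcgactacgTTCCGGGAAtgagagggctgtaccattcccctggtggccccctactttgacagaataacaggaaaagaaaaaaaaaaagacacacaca
The Socs3 copy began 154 bases before the start, and the Bcl6 copies shown 168, 122 and 88 bases before it. A match in letters does not show that STAT3 binds there.

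Between the separate cultures, neurons had higher levels of 3 of the 8 tested genes (Lifr, Jak1 and Stat3) and lower levels of 3 (Clcf1, Il6st and Cntfr). Among all 13012 tested genes 28% were higher and 35.2% lower, 63.1% in all, so a count of 6 of 8 is near the background. With cyclic loess 32.6% were higher and 31.2% lower, and with arrays centred on the tested genes 32.2% and 31.4%. The groups of neurons and precursors did not overlap for these 6 genes, as for 66.4% of all tested genes. The median log2 difference of the 8 genes was 0.0025, against -0.020 for all tested genes. By role, the higher transcripts in neurons were a receptor chain, the kinase and the STAT, and the lower ones a ligand, the shared signalling chain and the CNTF receptor chain.

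In the co-culture, 2 of the 8 genes were higher than in precursors (Lifr and Jak1) and 0 were lower. Of all tested genes 8.22% were higher and 0.2% lower, 8.42% in all. The lower share was 0.323% with the replicate number as a block. The groups did not overlap for Lifr, Jak1 and Stat3, against 24.8% of all tested genes. At an unadjusted p under 0.05 no further gene of the 8 passed in limma. Against neurons, 3 genes were higher in the co-culture (Clcf1, Il6st and Cntfr) and 3 lower (Lifr, Jak1 and Stat3), where 35.7% of all tested genes were higher and 24.9% lower, 60.6% in all. The groups did not overlap for these 6 genes, as for 65.4% of all tested genes. Scaling moved these backgrounds: with arrays centred on the median of the tested genes, an alternative chosen after seeing the data, 87.6% in place of 97.6% of the calls against precursors were higher, and 41.4% in place of 58.9% of those against neurons. There the median log2 difference of all tested genes was -0.080 in place of 0.032.

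**Figure D2:**
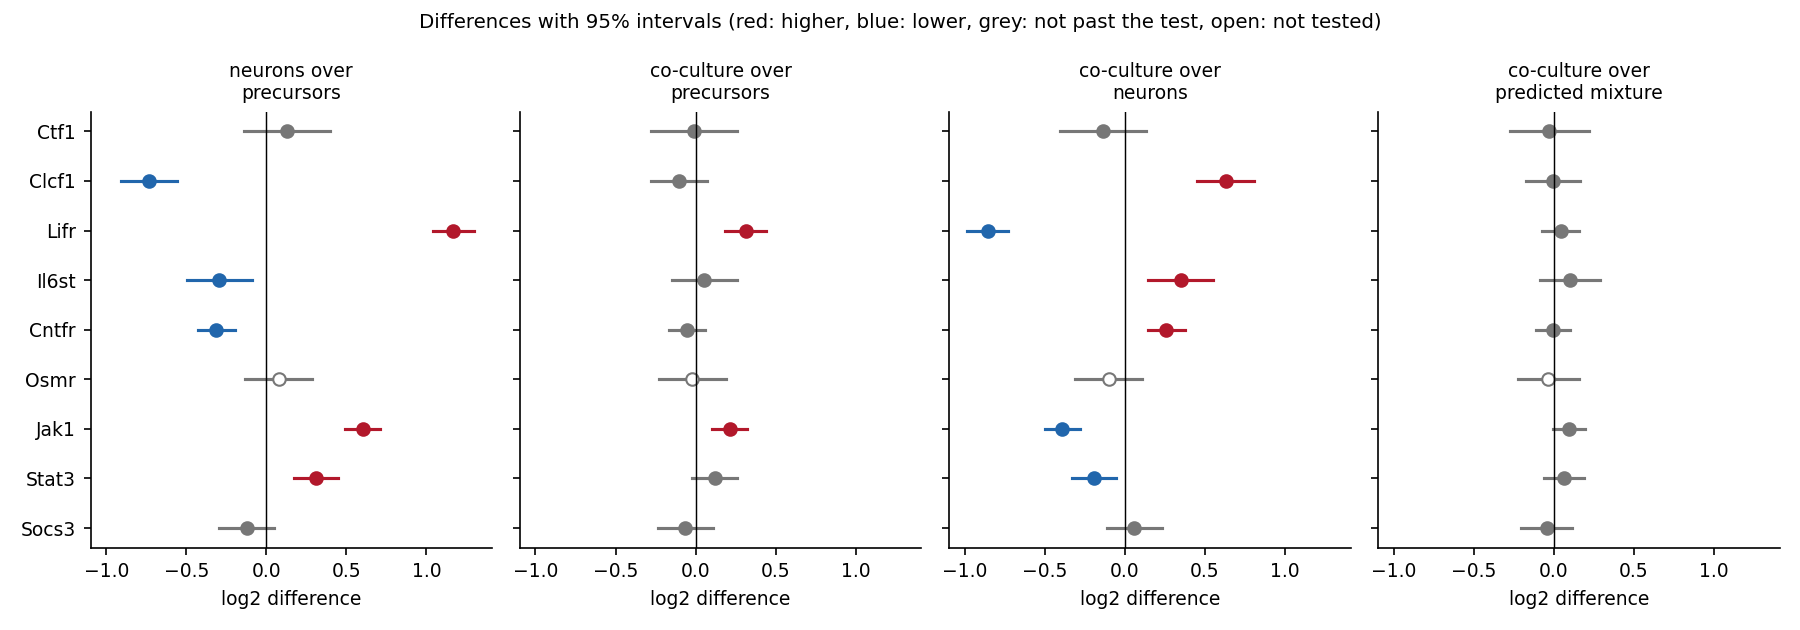
Points are log2 differences of each gene from the limma model, with 95% intervals, in 4 panels for neurons over precursors, co-culture over precursors, co-culture over neurons and co-culture over the predicted mixture. Red and blue mark genes higher and lower past an adjusted p of 0.05, grey those not past it, and the open symbol Osmr, which was not tested. Lifr has the largest difference in the first panel, at 1.17, and no gene passes in the last.

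The RNA of the co-culture comes from both kinds of cell, so each level was also set against the level that mixing would give. The neuron share, meaning the part of the co-culture RNA that resembled the neuron culture, was 16.7% ± 1.08 (SD, n = 3), taken from 214 genes at least 4-fold apart between the separate cultures and none of the 9. Genes higher in neurons gave 22.6% ± 1.18 and genes higher in precursors 10.9% ± 2.21 (SD, n = 3 each), so the share depends on which genes are used. The prediction used the share of the group means, 16.6%, and its error is not part of the test.

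No gene of the 8 departed from the predicted mixture in limma at an adjusted p below 0.05, nor at an unadjusted p under 0.05. In all, 0.361% of tested genes lay above the prediction and 0.0307% below, 0.392% in all. The co-culture level of Lifr was 7.92, against a predicted 7.88 (departure 0.041, 95% interval -0.072 to 0.15, adjusted p = 0.855). For Clcf1 it was 7.55 against 7.55 (-0.0055, 95% interval -0.17 to 0.16, adjusted p = 0.991), and for Cntfr 9.87 against 9.87 (-0.0049, 95% interval -0.11 to 0.10, adjusted p = 0.986). Jak1 and Il6st had the widest departures, of 0.094 (95% interval -0.0052 to 0.19, adjusted p = 0.629) and 0.10 (95% interval -0.089 to 0.29, adjusted p = 0.778). Stat3 departed by 0.062 (adjusted p = 0.789), Socs3 by -0.044 (0.894) and Ctf1 by -0.029 (0.961). With the share from either gene group alone none of the 8 passed either. These intervals bound a change within the precursors only as far as it shows in the whole co-culture RNA.

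**Figure D3:**
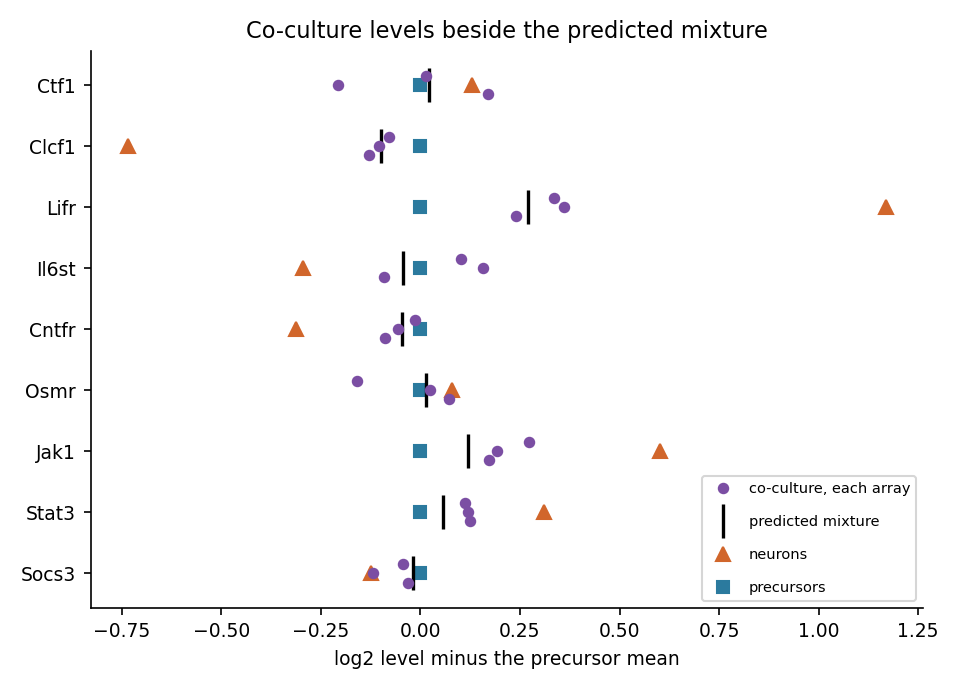
The horizontal axis is the log2 level minus the precursor mean of the same gene. Circles are the 3 co-culture arrays, vertical bars the level predicted for the mixture, triangles the neuron means and squares the precursor means. The co-culture arrays of Lifr and those of Clcf1 lie near their bars, at a small part of the distance from the precursor mean to the neuron mean.

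Among other ligands and receptors of the gp130 family, Il6ra differed most and many genes were not tested. Of 9 other ligand genes, 7 had a named probe set and 4 were tested, with a median of -0.024 for neurons over precursors. Of the 4, 1 was higher in neurons than in precursors, against 28% of all tested genes. This was Ebi3, a subunit of interleukin-27 (0.18, adjusted p = 0.0261). This call was lost without the filter (adjusted p = 0.0512), with cyclic loess (0.0521), without neuron replicate 1 (0.0870) or 2 (0.0610) and without precursor replicate 2 (0.0713) or 3 (0.0805). Lif itself was at 6.99 in the co-culture, 7.15 in neurons and 7.06 in precursors, and passed in none of the comparisons (adjusted p = 0.282 for neurons against precursors and 0.0777 for co-culture against neurons). It was lower in the co-culture than in neurons with arrays centred on the tested genes (adjusted p = 0.00762), without co-culture replicate 3 (0.0490) and without neuron replicate 3 (0.0133). Il6 and Il11 were below the filter, with means between 4.10 and 6.20 over both genes and all groups. Of 6 other receptor genes, 5 had a probe set and 2 were tested. Il6ra, the interleukin-6 receptor alpha chain, was lower in neurons than in precursors (-0.67, SE 0.071, adjusted p = 1.97e-05) and higher in the co-culture than in neurons (0.57, adjusted p = 7.56e-05). Between co-culture and precursors 0 of the 4 ligand and 0 of the 2 receptor genes passed in limma, against 8.42% of all tested genes. Cntf and Il11ra1 were not analysed here.

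Other kinases, STAT genes and inhibitors followed. Of 6 tested JAK and STAT genes, 2 were higher in neurons than in precursors (Stat2 at 0.49 and Jak2 at 0.16) and 2 lower (Stat4 at -1.14 and Stat5b at -0.33), with a median of -0.023. Jak2 (adjusted p = 0.0289) did not pass without the filter (0.0585), with array weights (0.0506), with the 6 arrays of the groups alone (0.0520), or without neuron replicate 2 (0.0819), precursor replicate 1 (0.0575) or precursor replicate 3 (0.0844). Stat4, which carries interleukin-12 signals in lymphocytes, averaged 5.75 in neurons and 6.89 in precursors, and was above the array median on 2 co-culture, 0 neuron and 2 precursor arrays, so its place among the tested genes rests on the cultures where it is higher. Of 14 tested inhibitor and phosphatase genes, 7 were lower in neurons and 1 higher (median -0.20, against -0.020 for all tested genes), where 35.2% of all tested genes were lower and 28% higher. The lower ones were led by Socs4 (-0.93), Socs2 (-0.71), Pias4 (-0.48) and Ptpn2 (-0.31). These encode suppressors of cytokine signalling, a STAT inhibitor and a JAK phosphatase. Cish (0.11, adjusted p = 0.135) passed as higher with the mean of all probe sets (8.17e-04) and with arrays centred on the tested genes (0.0487). The higher count was then 2. Between co-culture and precursors 0 of the 6 and 0 of the 14 genes passed the limma test, against 8.42% of all tested genes. Set against neurons, the co-culture had 8 inhibitor genes higher and 1 lower, with Socs4 at 0.78, Socs2 at 0.63, Pias4 at 0.48 and Socs1 at 0.28. Among all tested genes 35.7% were higher in that comparison and 24.9% lower. Socs1 (adjusted p = 0.0252) did not pass without neuron replicate 2 (0.0799) or 3 (0.0810), with the 6 arrays of the groups alone (0.0575) or with arrays centred on the tested genes (0.186). It was above the array median on 2 co-culture arrays and 1 neuron array, so it was tested mainly through the co-culture. Cish passed as lower in the co-culture than in neurons with the mean of all probe sets (adjusted p = 0.0142). It also did so with arrays centred on the tested genes (0.0146), and the lower count was then 2.

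Transcripts that STAT3 can induce included genes higher and genes lower in neurons. Of 13 tested genes 5 were higher than in precursors and 5 lower (median -0.041), a share near the 63.1% of all tested genes called. Of the 13, 9 were above the array median on all 9 arrays. The immediate early gene Fos (1.38), the repressor gene Bcl6 (1.28) and the acute phase gene Serpina3n (0.83) were higher, although Serpina3n was above the array median on neuron arrays alone and so was tested because it is higher there, and Ccnd1, which encodes cyclin D1 of the cell cycle, was lower (-1.09). In the co-culture, Fos (0.74, SE 0.051, adjusted p = 1.83e-05) and Bcl6 (0.52, SE 0.061, adjusted p = 5.42e-04) were higher than in precursors, and 11 of 13 did not pass. Against precursors, 8.22% of all tested genes were higher and 0.2% lower. Against neurons 6 were higher and 5 lower, led by Ccnd1 (1.05) and Bcl6 (-0.75), with Pim1 at 0.70 and Timp1 at 0.64. Among all tested genes 35.7% were higher in that comparison and 24.9% lower. Of the 6, Cebpb did not pass with the 6 arrays of the groups alone (adjusted p = 0.0522) or with arrays centred on the tested genes (0.138). Nor did it pass without co-culture replicate 1 (0.0548) or 2 (0.0992), or without neuron replicate 1 (0.0783) or 2 (0.0838). Cebpb was above the array median on 3 co-culture, 1 neuron and 3 precursor arrays. It was thus tested mainly through the cultures where it is higher, and its higher level than in neurons gives no separate support. Fos alone of these 13 genes passed against the predicted mixture (co-culture 7.94 against a predicted 7.54, departure 0.41, SE 0.045, adjusted p = 0.00738). It did not pass at the share from genes higher in neurons (adjusted p = 0.0670) or with arrays centred on the tested genes (0.0563), in a range of 5.10e-04 to 0.0670 over all alternatives. Bcl6 (departure 0.22, adjusted p = 0.246) passed without precursor replicate 3 (adjusted p = 0.0353) and at the share from genes higher in precursors (0.0180). Fos, Ccnd1 and several others of this list also respond to many other signals.

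Genes of astrocytes split between higher and lower. Of 12 listed, 8 were tested, and neurons had 4 of them higher and 4 lower than precursors did (median -0.32, against -0.020 for all tested genes, of which 28% were higher and 35.2% lower). Aldh1l1, one of the higher genes, did not pass without precursor replicate 2 (adjusted p = 0.0546) or 3 (0.0552). Sparcl1, a secreted synapse-promoting protein, was higher in neurons (2.33, SE 0.20), and the glycolytic gene Aldoc (-1.78), the gap junction gene Gja1 (-1.18) and the FGF receptor gene Fgfr3 (-1.06) were lower. Gfap, the classic STAT3 target of astrocytes, was below the filter, with means of 6.59 in the co-culture, 6.74 in neurons and 6.69 in precursors. Between co-culture and precursors only Sparcl1 passed (1.12, SE 0.20, adjusted p = 0.00708), which was also higher in neurons. The share of all tested genes that passed there was 8.42%. Aldh1l1 (0.32, adjusted p = 0.0943) passed as higher with array weights (0.0227) and without precursor replicate 1 (0.00255), so the count was then 2. Against neurons 4 were higher in the co-culture and 3 lower, led by Aldoc (1.72), Sparcl1 (-1.21), Fgfr3 (1.09) and Gja1 (1.08). Among all tested genes 35.7% were higher in that comparison and 24.9% lower. Slc1a2, one of the lower genes, did not pass without co-culture replicate 2 (adjusted p = 0.0558) or neuron replicate 3 (0.0521). Radial precursors express several genes of this list, among them Aldoc, Fgfr3 and Slc1a3.

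Regulators of the switch to gliogenesis were mostly lower in neurons, whichever way they act. Hes5 was also among the radial precursor markers used above, so its lower level in neurons is not a separate result. Neurog2 was also listed as an intermediate progenitor marker. Of 8 tested genes that favour gliogenesis, 6 were lower than in precursors and 2 higher (median -0.92), against 35.2% of all tested genes lower and 28% higher (median -0.020). Notch1, the receptor of a precursor-maintaining pathway, was lower by a log2 difference of -1.93, the transcription factor gene Sox9 by -1.86 and Nfia by -0.98, while Nfix was higher (1.26). Nfib, one of the lower genes, did not pass with cyclic loess (adjusted p = 0.0539). All 6 tested genes that restrain gliogenesis were lower (median -0.97), led by Hmga2 (-2.44), the histone methyltransferase gene Ezh2 (-1.10), the proneural gene Neurog2 (-0.97) and the DNA methyltransferase gene Dnmt1 (-0.96). Neurog1 was above the array median on 3 co-culture, 1 neuron and 3 precursor arrays. It was thus tested through the cultures where it is higher, and its lower level in neurons gives no separate support. Of the 6, Tab2 (-0.16, adjusted p = 0.0170) did not pass with cyclic loess (0.263), with arrays centred on the tested genes (0.0766) or without precursor replicate 3 (0.0603). In the co-culture, Nfix passed against precursors (0.45, SE 0.071, adjusted p = 0.00314) and the other 13 of these 14 genes did not. The share of all tested genes that passed there was 8.42%. Hmga2 (-0.18, adjusted p = 0.0859) was called lower with the filter at the 75th percentile (0.0413), with array weights (0.0365) and with arrays centred on the tested genes (0.0266). Against neurons, 6 of the 8 were higher in the co-culture and 2 lower, and all 6 restraining genes were higher, with Hmga2 at 2.25 and Notch1 at 1.81. Among all tested genes 35.7% were higher and 24.9% lower. Here Tab2 did not pass with cyclic loess (adjusted p = 0.312), with arrays centred on the tested genes (0.411), without co-culture replicate 1 (0.0731) or without neuron replicate 1 (0.0533). Nfib did not pass with arrays centred on the tested genes (0.0645).

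**Figure D4:**
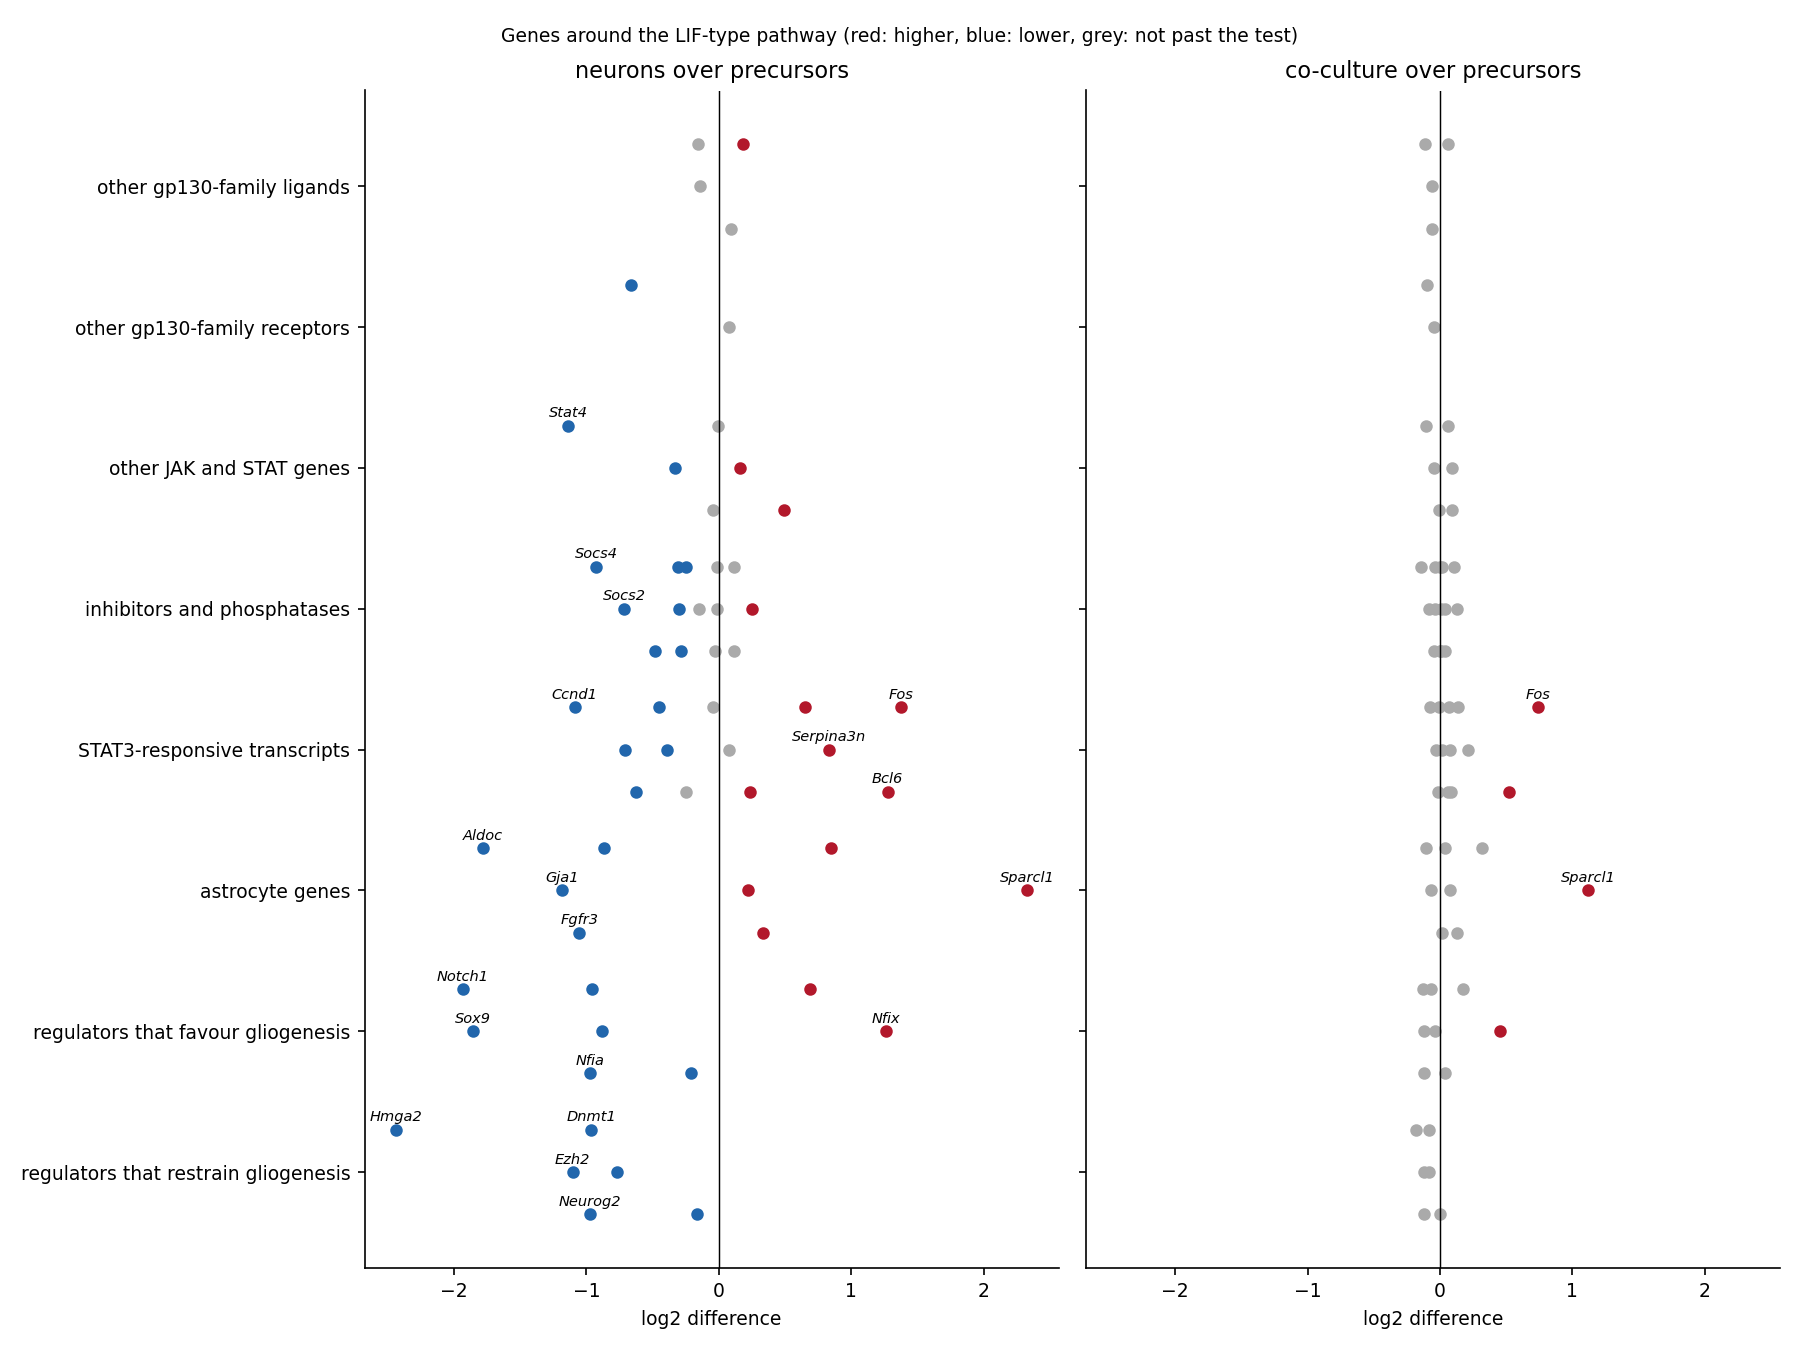
Each point is a tested gene of 1 of 8 lists around the LIF-type route, placed by its log2 difference for neurons over precursors (left) and co-culture over precursors (right); points are spread vertically only to keep them apart. Red and blue mark genes higher and lower past an adjusted p of 0.05, grey those not past it, and names are given where the rule for named genes picked the gene and the difference exceeds 0.7. On the right 4 genes pass: Fos, Bcl6, Sparcl1 and Nfix.

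Marker genes of some other cell types also differed between the cultures. The log2 of the summed linear level of the 6 astrocyte markers was 10.99 to 11.07 in the co-culture, 9.99 to 10.21 in neurons and 11.00 to 11.16 in precursors, and 3 of the 6 were above the array median on all arrays of each group. The lower sum in neurons does not hold for most tested markers. Of the 3 tested, 2 were higher in neurons than in precursors and 1, Aldoc, was lower (median 0.22). Aldoc averaged 8.86 in neurons and 10.64 in precursors. Of 4 tested endothelial markers, 1 was above the median on all 9 arrays and the other 3 on no neuron array, so these 3 passed the filter only through the other cultures and their lower level in neurons gives no separate support. The summed level of all 6 listed endothelial markers was 9.60 to 9.90 in the co-culture, 9.05 to 9.14 in neurons and 9.61 to 9.71 in precursors. Of 5 tested microglia markers 2 were above the median on all 9 arrays, with sums of 10.17 to 10.23 in the co-culture, 9.97 to 10.16 in neurons and 10.21 to 10.33 in precursors. Of 7 tested fibroblast and pericyte markers 2 were above the median on all 9 arrays, with sums of 10.01 to 10.61 in the co-culture, 9.78 to 9.99 in neurons and 9.91 to 10.12 in precursors. The part of these cells in the levels of the 9 genes was not tested.

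The genes whose pattern over the 9 arrays was most like that of each member were found by the root mean square difference of log2 levels, each gene centred on its own mean. For Lifr they were Lonrf2 (0.047), Adarb1 (0.048) and Msra (0.049), and for Jak1 they were Smap2 (0.032), Pak3 (0.034) and Cd81 (0.037). These 6 genes had differences between neurons and precursors of 0.56 to 1.14. Clcf1 was most like Vegfa (0.055), Bckdha (0.056) and Mdm1 (0.059), and Vegfa differed by -0.71 between neurons and precursors. Il6st was nearest to Fam91a1 (0.042), Thumpd1 (0.043) and Prpf4b (0.049), Cntfr to Nfatc1 (0.024), Zfp703 (0.034) and Mcph1 (0.035), and Stat3 to Aig1 (0.041), Dcun1d4 (0.042) and Dip2a (0.043). For Ctf1 and Socs3, which passed no comparison and lay 0.155 and 0.0974 from their own means by the same measure, the nearest genes were led by Gsdmd (0.055) and Gm16576 (0.035).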

How the data were processed

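RNA of 9 cultures was measured on Affymetrix mouse gene arrays. The authors deposited 1 log2 value per probe set and array, and the submitters' processing notes name RMA and the oligo package; versions and genome build are not given in the sources used here. Array medians lay between 6.75 and 6.79. Arrays have no read depth, so their number, 3 per group, limits the precision.

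Of 41345 probe sets, 23521 had 1 symbol, 1814 several and 16010 none; only the first were used. The highest-mean probe set stood for each of 22180 genes, and the 13012 that exceeded the median probe set on at least 3 arrays were tested with limma (version 3.58.1, R 4.3.3; lmFit, eBayes, two-sided, Benjamini-Hochberg). The mixture test was a contrast specific to each gene in the same model. The fits were tested on simulated data. The p-values rest on 1 spread per gene, pooled over the replicates of the 3 groups and drawn by eBayes toward that of other genes. The main model leaves out any pairing of arrays by replicate number.

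The members and lists were chosen with earlier results of these data known. Named are the 9 members in every comparison, up to 4 called genes of each list with the largest difference, and the 3 genes most like each tested member; list genes outside this rule that are named were chosen after their values were seen. Same-numbered co-culture and precursor arrays deviated from their group means together (correlations over genes of 0.34, 0.30 and 0.16), so by a rule of 0.1 for every pair the numbers pair them. For neurons they do not, either against precursors (0.0043, 0.13 and -0.15) or against the co-culture (-0.0051, 0.27 and 0.17). Alternatives changed the filter, the scaling, the probe set rule, the weights, the block, the arrays and the share.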

Additional observations from a re-analysis of the deposited data

How the results depend on the processing

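Under all alternatives run, Lifr kept its direction and call in the 3 comparisons between cultures, as did Clcf1, Cntfr and Jak1 in their called differences except Jak1 between co-culture and precursors. The replicate block changed no call of the 8 tested genes; with it neurons had 3 higher and 3 lower than precursors did, and the co-culture 2 higher and 0 lower than precursors. It moved the count of all genes lower in the co-culture than in precursors to 42, against 26. That count was 40 without the filter, 43 at the 75th percentile, 87 with array weights, 57 with the arrays of both groups alone and 98 with arrays centred on the tested genes. Leaving out 1 array at a time gave 7 to 51, with 7 without co-culture replicate 1, 10 without co-culture replicate 2, 14 without precursor replicate 2 and 51 without neuron replicate 2, and without co-culture replicate 2 the higher count was 676, against 1069. With arrays centred on the tested genes that higher count was 692, and 4925 genes in place of 3236 were lower in the co-culture than in neurons. The counts of all genes past the predicted mixture, 47 higher and 4 lower, were 9 to 324 and 0 to 9 over the alternatives: the higher count was 29 with the replicate block, 9 and 324 at the shares from genes higher in neurons and in precursors, and 9 to 47 with 1 array left out (10, 9 and 16 without co-culture replicates 1, 2 and 3, 20, 25 and 24 without neuron replicates 1, 2 and 3, 30 and 18 without precursor replicates 1 and 2).

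Of the 9 genes, the count higher in the co-culture than in precursors was 1 without the filter and with arrays centred on the tested genes, and 1 to 2 when leaving out each array in turn; Jak1 was the gene lost. With 1 array left out, 2 to 3 genes were lower in neurons than in precursors and 2 to 3 lower in the co-culture than in neurons. Clcf1 was not tested at the 75th percentile, nor Socs3 there or with the mean of all probe sets. Differences near 0 changed sign, none of them called. Between co-culture and precursors Ctf1 became 0.0031 with centred arrays, 0.0095 with array weights, 0.092 without co-culture replicate 2 and 0.11 without precursor replicate 1 (-0.096 to 0.11 with 1 array left out), and Il6st became -0.0064 with arrays centred on the tested genes. Between co-culture and neurons Socs3 became -0.053 with that centring and -0.018 without neuron replicate 2 (-0.018 to 0.14 with 1 array left out). Against the predicted mixture Ctf1 became 0.070 without co-culture replicate 2 or precursor replicate 1 (-0.12 to 0.070 with 1 array left out). Clcf1 there became 0.0037 with centred arrays, 6.6e-04 with cyclic loess, 0.025 with array weights and 0.032 at the share from genes higher in neurons, and it lay between -0.072 and 0.049 with 1 array left out (0.0047 without co-culture replicate 3, 0.0036 without neuron replicate 2, 0.049 without precursor replicate 1, 0.011 without precursor replicate 2). Cntfr became 0.0050 with centred arrays, 0.013 with array weights and at the share from genes higher in neurons, 0.012 without co-culture replicate 3, 0.0077 without precursor replicate 1 and 0.023 without precursor replicate 2 (-0.044 to 0.023 with 1 array left out). Lifr became -0.053 and Stat3 -0.014 with arrays centred on the tested genes, and Lifr -0.046 at the share from genes higher in neurons. The cause of these changes was not tested.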
